A study of Mus musculus with 3 samples.

Results

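Clustered zinc finger genes were taken from the mm10 GENCODE annotation as protein-coding genes with a symbol of Zfp followed by digits only, Zfp42 left out, whose 5′ end lay at most 50 kb from the 5′ end of another such gene. Of 364 Zfp genes among 21938 protein-coding genes, 154 met this rule, and they formed 47 clusters on 14 chromosomes when neighbours were joined in a chain. The other 210 Zfp genes are called unclustered below. The study profiled F123, a male hybrid mouse embryonic stem cell line of S129/Jae and Cast origin, by ChIP-seq for the Polycomb mark H3K27me3 (rabbit antibodies from Millipore) and for 2 forms of RNA polymerase II, with serine 5 of its tail phosphorylated (Pol2-S5p, mouse antibody CTD4H8) or serine 7 (Pol2-S7p, rat monoclonal antibody). The cells had grown on fibroblast feeders with LIF and were moved to gelatin without feeders for at least 2 passages before harvest. Each mark was measured in 1 library of 1 cell line, untreated and with no input or replicate used here, so no difference between groups of genes was tested, and shares are given with exact Clopper-Pearson intervals that cover counting error only. Neighbouring genes share regions and are not independent.

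Most genes of this kind encode proteins with a row of C2H2 zinc fingers, each finger holding a zinc ion and reading a few bases of DNA. Many also carry a KRAB box, which recruits TRIM28 and, through it, the histone methyltransferase SETDB1, and such proteins are known for silencing transposable elements in embryonic stem cells. The family has grown by tandem duplication, which leaves runs of related genes side by side. Serine 5 of the polymerase tail is phosphorylated around initiation, serine 7 phosphorylation accompanies polymerase at active promoters and through gene bodies, and H3K27me3 is laid down by PRC2 at repressed or poised genes.

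RefSeq promoter sequences (GRCm38.p6, 250 bases before to 50 after the RefSeq start, written 5′ to 3′ on the strand of the gene) are shown for 1 member of each main promoter state, taken from the members of its state with the most unique 75-base words in the window, ties by symbol, so that the letters can be set beside the marks. CG pairs are in capitals. The first lies at chr7:12834511-12834810 on the plus strand in a promoter with both polymerase marks, the second at chr5:143269973-143270272 on the minus strand in a promoter with all 3 marks, the third at chr4:147848369-147848668 on the minus strand in a promoter with Pol2-S7p alone, and the last at chr17:33394588-33394887 on the minus strand in a promoter with no mark.
Zfp110: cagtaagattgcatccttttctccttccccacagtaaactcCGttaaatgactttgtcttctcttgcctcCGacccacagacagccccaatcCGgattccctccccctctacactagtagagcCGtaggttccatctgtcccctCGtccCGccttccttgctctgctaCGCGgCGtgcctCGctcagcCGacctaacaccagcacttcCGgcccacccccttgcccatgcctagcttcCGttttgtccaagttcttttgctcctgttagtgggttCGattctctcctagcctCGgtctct
Zfp316: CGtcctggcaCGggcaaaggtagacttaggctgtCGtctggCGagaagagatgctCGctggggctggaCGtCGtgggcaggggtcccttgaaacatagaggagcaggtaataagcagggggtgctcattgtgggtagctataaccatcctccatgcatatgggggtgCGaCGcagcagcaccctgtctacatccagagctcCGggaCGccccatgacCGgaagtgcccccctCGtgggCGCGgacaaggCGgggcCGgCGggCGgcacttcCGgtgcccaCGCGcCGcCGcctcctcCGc
Zfp933: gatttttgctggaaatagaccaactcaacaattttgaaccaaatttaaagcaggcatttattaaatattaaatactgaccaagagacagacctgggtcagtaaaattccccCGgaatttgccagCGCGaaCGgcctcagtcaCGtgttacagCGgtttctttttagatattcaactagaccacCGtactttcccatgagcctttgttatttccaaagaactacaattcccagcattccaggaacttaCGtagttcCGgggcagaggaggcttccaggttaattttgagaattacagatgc
Zfp101: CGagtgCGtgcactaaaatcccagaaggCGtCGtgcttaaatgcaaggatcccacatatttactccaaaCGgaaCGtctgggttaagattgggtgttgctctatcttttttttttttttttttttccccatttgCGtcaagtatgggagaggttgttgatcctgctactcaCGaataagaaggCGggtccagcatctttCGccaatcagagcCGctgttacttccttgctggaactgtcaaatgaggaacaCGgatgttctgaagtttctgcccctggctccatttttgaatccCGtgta
Both polymerase marks covered all 300 bases of the Zfp110 window, all 3 marks covered the whole Zfp316 window, Pol2-S7p alone covered the Zfp933 window, and the Zfp101 window was bare. They held 15, 25, 9 and 13 CG pairs, respectively. The RefSeq start of Zfp316 lay 5366 bp from the annotated start used for its promoter state.

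A further 3 windows were chosen after the values were seen. Zfp984, at chr4:147809739-147810038 on the minus strand with 9 CG pairs, is the cluster partner of Zfp933 and also held Pol2-S7p alone. Zfp146, at chr7:30169692-30169991 on the minus strand with 13 CG pairs, lies in one of the larger clusters and held both polymerase marks.
Zfp984: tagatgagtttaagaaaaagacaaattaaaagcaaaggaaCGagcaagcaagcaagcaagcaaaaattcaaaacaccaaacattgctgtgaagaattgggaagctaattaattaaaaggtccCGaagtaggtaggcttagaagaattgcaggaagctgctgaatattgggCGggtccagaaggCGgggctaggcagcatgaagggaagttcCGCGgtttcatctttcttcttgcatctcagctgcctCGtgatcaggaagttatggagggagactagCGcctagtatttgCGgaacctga
Zfp146: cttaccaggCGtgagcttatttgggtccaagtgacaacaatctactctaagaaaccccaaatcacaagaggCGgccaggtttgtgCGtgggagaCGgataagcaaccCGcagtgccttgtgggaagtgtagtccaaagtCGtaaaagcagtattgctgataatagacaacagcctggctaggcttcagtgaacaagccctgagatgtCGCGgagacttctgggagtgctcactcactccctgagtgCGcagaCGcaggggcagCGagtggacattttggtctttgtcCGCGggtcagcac
The window of Zfp943, at chr17:21962309-21962608 on the plus strand, also holds the start of its divergent neighbour Zfp942. Capitals here mark the bases from the RefSeq start of Zfp942 to that of Zfp943, which are 95 bp apart.
Zfp943: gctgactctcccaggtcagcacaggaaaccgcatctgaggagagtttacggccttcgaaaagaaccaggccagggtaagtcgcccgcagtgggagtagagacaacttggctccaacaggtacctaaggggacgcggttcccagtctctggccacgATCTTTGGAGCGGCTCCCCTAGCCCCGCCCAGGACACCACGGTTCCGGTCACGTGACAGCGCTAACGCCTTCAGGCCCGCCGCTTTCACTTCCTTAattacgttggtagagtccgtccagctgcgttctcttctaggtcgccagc
Both polymerase marks covered all 300 bases of this shared window, which held 21 CG pairs and no H3K27me3.

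The deposited lists held 17342 H3K27me3, 29222 Pol2-S5p and 22320 Pol2-S7p enriched regions on 21 chromosomes. They give positions, widths and a score but no read counts, so the depth is unknown, and a gene with no region is a gene without a called region rather than a gene without signal. The labelled cell type was checked with marker genes. Of 7 embryonic stem cell markers, 5 had both polymerase marks without H3K27me3 (Pou5f1, Nanog, Esrrb, Tfcp2l1 and Zfp42), and Sox2 and Klf4 had all 3 marks. Of 6 feeder fibroblast markers, Thy1, Pdgfrb and Twist2 had H3K27me3 with Pol2-S5p, Col1a1 and Col1a2 had H3K27me3 alone and Postn had no mark, so none carried Pol2-S7p at its promoter.

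Clustered Zfp genes were mostly in the Active state, with both forms of polymerase and without H3K27me3 at the promoter. A mark was called present where an enriched region touched the 2 kb window centred on the start, and the start was the annotated one with the longest cover by Pol2-S5p regions, which stands in for the Pol2-S5p reads that the study used to choose it. Overlapping genes and genes with close starts, which the study left out of its states, were kept. Of 154 members, 120 were Active (77.9%, interval 70.5 to 84.2), beside 35.9% of all protein-coding genes. Pol2-S5p lay at 144 promoters (93.5%, 88.4 to 96.8) and Pol2-S7p at 141 (91.6%, 86 to 95.4), where the shares over all coding genes were 69.9% and 60.4%. The polymerase marks came together at the members: 139 of the 141 promoters with Pol2-S7p also held Pol2-S5p (98.6%).

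H3K27me3 was less frequent at these promoters than over the genome. It touched 21 members (13.6%, 8.64 to 20.1), beside 37.7% of all coding promoters. Of these, 19 held all 3 marks, the Polycomb-Active state called PRCa (12.3% of members, 7.59 to 18.6, beside 23.9%). Zfp853 was the single member with H3K27me3 and Pol2-S5p but no Pol2-S7p, the Polycomb-repressed state called PRCr (0.649%, beside 7.66%), and Zfp663 the single member with H3K27me3 only (0.649%, beside 6.02%). A further 4 members held Pol2-S5p only (2.6%, beside 2.46%, a share near the background), 2 held Pol2-S7p without Pol2-S5p (1.3%, 0.158 to 4.61, an interval that includes the 0.579% of all coding genes), and 7 held no mark (4.55%, 1.85 to 9.14, beside 23.5%). No member held H3K27me3 with Pol2-S7p alone, which allows a share of up to 2.37%.

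**Figure D1:**
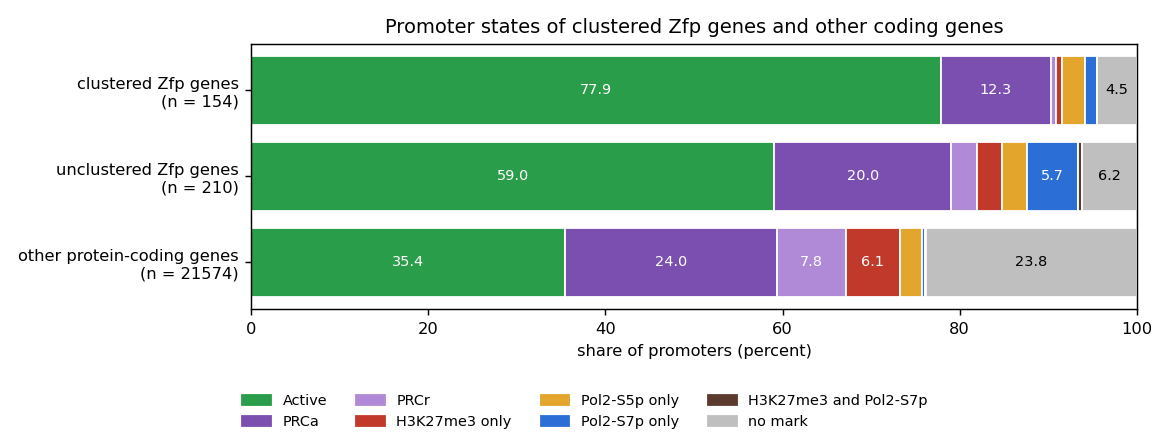
Bars divide the promoters of 154 clustered Zfp genes, 210 unclustered Zfp genes and 21574 other protein-coding genes by state, as percent of promoters on the horizontal axis. Active promoters make up 77.9%, 59% and 35.4%, and promoters without any mark 4.55% and 6.19% of the Zfp groups.

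Unclustered Zfp genes lay between the members and other coding genes in their Active and H3K27me3 shares, but not in Pol2-S7p without Pol2-S5p, which was most frequent among them. Active promoters made up 124 of 210 (59%, 52.1 to 65.8), and their interval did not overlap that of the members. PRCa promoters numbered 42 (20%, 14.8 to 26.1) and promoters with H3K27me3 numbered 55 (26.2%, 20.4 to 32.7). Pol2-S7p without Pol2-S5p was found at 13 unclustered Zfp promoters (6.19%, 3.34 to 10.4), against 1.3% of members and 0.519% of other coding genes. A low share of H3K27me3 was not particular to the members. The mark lay at 10.4% of the 48 Zfp genes whose nearest neighbour was 50 to 100 kb away, and at 8.79% of unclustered Zfp genes with a KRAB box, beside 11.8% of members with one. With only the higher-scoring part of each region list, it lay at 12.3% of members and 13.3% of unclustered Zfp genes. The genes nearest the 50 kb limit were mixed in state. Just inside were Zfp146 and Zfp810 (nearest Zfp start at 47.8 kb), Zfp128 (46.4 kb) and Zfp647 (46.2 kb), all Active, and Zfp879 (46.1 kb) with no mark. Zfp667 (44.7 kb), also inside, was Active. Just outside were Zfp976 and Zfp977 (50 kb when rounded) and Zfp975 (50.2 kb), all Active, then Zfp995 (52.5 kb) with Pol2-S7p only. Zfp981 (53 kb) with Pol2-S5p only and Zfp992 (53 kb) with no mark followed.

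The choice of start by Pol2-S5p cover favours starts with polymerase in every group alike. With the 5′ end of the gene record, which uses no mark, 115 members were Active (74.7%) and 23 PRCa (14.9%). At this end 33.6% of all coding genes were Active and 24.6% PRCa. Of the members, 10 changed state, a share near that of all coding genes (1662 of 21938). Zfp12, Zfp777 and Zfp647 passed from Active to PRCa, and Zfp111, Zfp708, Zfp759 and Zfp458 from Active to no mark, their chosen starts lying 7860, 16431, 6568 and 9398 bp downstream of the 5′ end. Zfp114 and Zfp382 passed from Pol2-S5p only to Active, and Zfp28 from Pol2-S5p only to PRCa.

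Pol2-S7p without Pol2-S5p was found at both members of a single cluster, Zfp984 and Zfp933 on chromosome 4, whose promoter sequences are given above. Both encode KRAB zinc finger proteins, with 11 and 12 fingers found by pattern. In Zfp984 (chr4:147753974-147809788, minus strand) Pol2-S7p covered all 2000 bp of the window and belonged to a region of 15200 bp. In Zfp933 (chr4:147822986-147848366, minus strand) it covered 1366 bp of the window from a region of 1800 bp. The genes differed more strongly in the body, taken from 1 kb after the start to the 3′ end: Pol2-S7p covered 76.3% of the 54815 bp body of Zfp984 and Pol2-S5p 6.2%, while in Zfp933 the covers were 8.26% and 3.28%. Over the 94.4 kb span of the cluster, Pol2-S7p covered 61.4% and Pol2-S5p 4.45%, and this was the 1 cluster of 47 with no Pol2-S5p promoter.

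Reads from near-identical copies can be placed ambiguously, which bears on a family of tandem duplicates. The share of 75-base words, the read length, that occurred once in the genome was 93% in the window of Zfp984 and 100% in that of Zfp933, and 67.1% and 71.8% in their bodies. The lowest window among the members was that of Zfp934 (53.8%), and the median was 100%. Among the unclustered Zfp genes, 9 of the 13 promoters with Pol2-S7p and without Pol2-S5p lay in the 23 windows with under 50% unique words, and none in the 138 windows with at least 99%. Of these 13 genes, 8 lie on chromosome 4, as Zfp984 and Zfp933 do (Zfp990, Zfp980, Zfp987, Zfp600, Zfp989, Zfp988, Zfp985 and Zfp534). The part of mappability in the absence of Pol2-S5p regions was not tested.

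The converse state, Pol2-S5p only, was held by Zfp108, Zfp114, Zfp382 and Zfp28, all KRAB zinc finger genes on chromosome 7. Pol2-S5p covered the whole window and the whole body of Zfp108 from a region of 27200 bp, with no Pol2-S7p in either. It covered 67.1% of the body of Zfp114 and 100% of that of Zfp382, and none of that of Zfp28, where the region of 7600 bp stopped before the body. Zfp108 was the only member of the 4 that kept this state when the 5′ end of the gene record was used. Members with no mark were Zfp773 and Zfp772, from 1 cluster of chromosome 7, Zfp879, Zfp457, Zfp952, Zfp101 and Zfp300, the last on chromosome X. All 7 carried the KRAB pattern, and 5 of them had no polymerase region in the body either (Zfp772, Zfp300, Zfp879, Zfp457 and Zfp952). Zfp773 had Pol2-S7p over 24.6% of its body.

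H3K27me3 at member promoters ran from part of a wide domain to a short stretch around the start. It covered all 2000 bp of the window in 10 members: Zfp334, Zfp663, Zfp316, Zfp853, Zfp768, Zfp707, Zfp580, Zfp623, Zfp9 and Zfp956. In the other 11 it covered between 800 bp (Zfp677) and 1800 bp (Zfp251). Zfp663 and Zfp334, neighbours on chromosome 2, lay inside 1 region of 206600 bp (chr2:165323600-165530199) that covered both gene bodies and the whole span of their cluster. Inside this domain the promoters differed: Zfp663 had no polymerase region in its window, whereas Zfp334 had 1341 bp under Pol2-S5p and 2000 bp under Pol2-S7p, with 60.5% and 95.9% of its body covered.

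Zfp316 and Zfp853 on chromosome 5 shared a region of 47600 bp (chr5:143251400-143298999). All 3 marks covered the entire window of Zfp316, with 87.8% of its body under H3K27me3 and 100% under each polymerase mark. Zfp853 had the same full cover by H3K27me3 and Pol2-S5p in its window and no Pol2-S7p there, and 28.6% of its body under Pol2-S7p. The next widest regions were those at Zfp768 (38400 bp), Zfp707 (22400 bp) and Zfp580 (17200 bp), and each body lay wholly under H3K27me3. At the other end, regions of 4800 bp at Zfp9 and 4400 bp at Zfp956 left most of the body free of the mark (9.29% and 9.26% covered), while Pol2-S7p covered 0% and 100% of these bodies, so promoter H3K27me3 of similar extent went with opposite polymerase cover.

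By cluster, 25 of 47 had every member Active, and 34 had no promoter with H3K27me3. Among the 13 clusters that had such a promoter, all promoters were positive in 3, each a pair: Zfp663 and Zfp334 on chromosome 2, Zfp248 and Zfp9 on chromosome 6, and Zfp623 and Zfp707 on chromosome 15. Every promoter held Pol2-S5p in 39 clusters and Pol2-S7p in 36, and no cluster was without a Pol2-S7p promoter. No H3K27me3 region touched the span of 18 clusters, and the median cover of the span was 0.9% for H3K27me3, 32.3% for Pol2-S5p and 42.1% for Pol2-S7p. Pol2-S7p covered more of the span than Pol2-S5p in 24 clusters and less in 22.

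**Figure D2:**
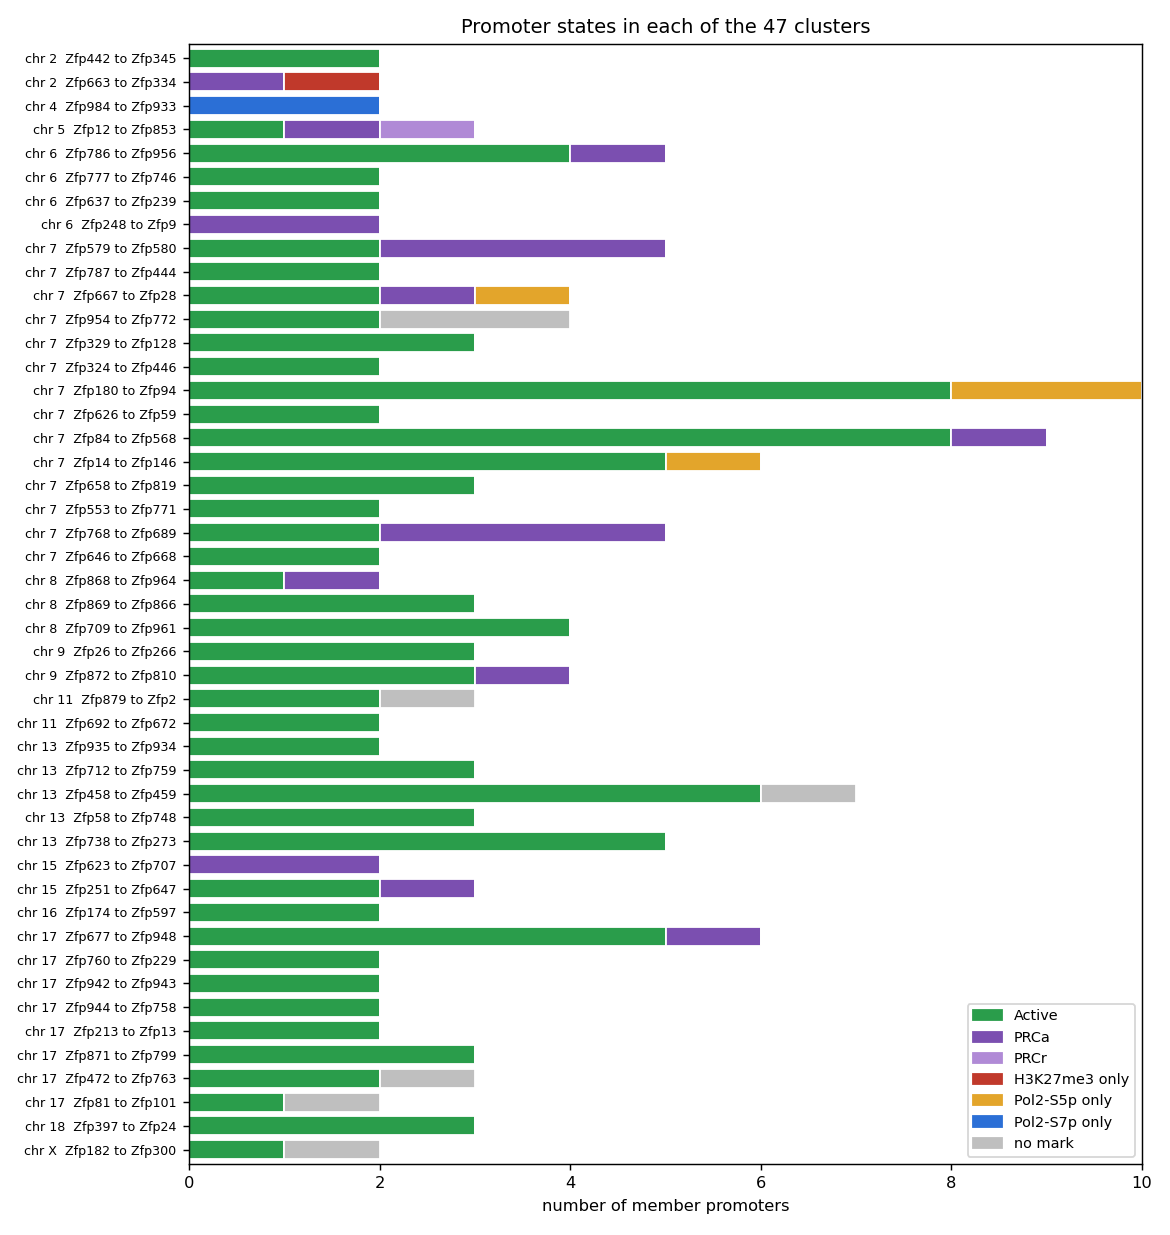
Each of the 47 rows is a cluster named by chromosome and its first and last member, and the bar divides its member promoters (number on the horizontal axis) by state. In 25 rows every promoter is Active, and the chromosome 4 row is the one where both promoters hold Pol2-S7p only.

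The largest cluster held 10 members over 235 kb of chromosome 7 (chr7:24081924-24316666, Zfp180 to Zfp94). Of these, 8 were Active and 2, Zfp114 and Zfp108, held Pol2-S5p only. Pol2-S5p covered 49.2% of its span, Pol2-S7p 42.1% and H3K27me3 2.56%. The marks parted along the cluster, from Zfp108 with its body wholly under Pol2-S5p and free of Pol2-S7p to Zfp61 with its body wholly under Pol2-S7p and 18.8% under Pol2-S5p. A second cluster of chromosome 7 (chr7:30036359-30169750, Zfp14 to Zfp146) had 5 Active promoters of 6 and more Pol2-S5p than Pol2-S7p, 78% of the span against 51.8%. There Zfp14 had 100% of its body under Pol2-S5p and 0% under Pol2-S7p, and Zfp146 had 100% under each.

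Chromosome 9 held a cluster of the opposite kind. In the cluster of Zfp26, Zfp426 and Zfp266 (chr9:20428449-20521417), all Active, Pol2-S7p covered 82.4% of the span and Pol2-S5p 25.6%, with 56.8% of the span under Pol2-S7p alone and no H3K27me3. In the cluster of Zfp579 to Zfp580 (chr7:4983483-5053723), 3 of 5 promoters were PRCa and H3K27me3 covered 35.2% of the span. The same count held for Zfp768 to Zfp689 (chr7:127342795-127449158), with 14.5% of the span covered. These were the clusters of 5 or more members with the most H3K27me3 promoters.

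**Figure D3:**
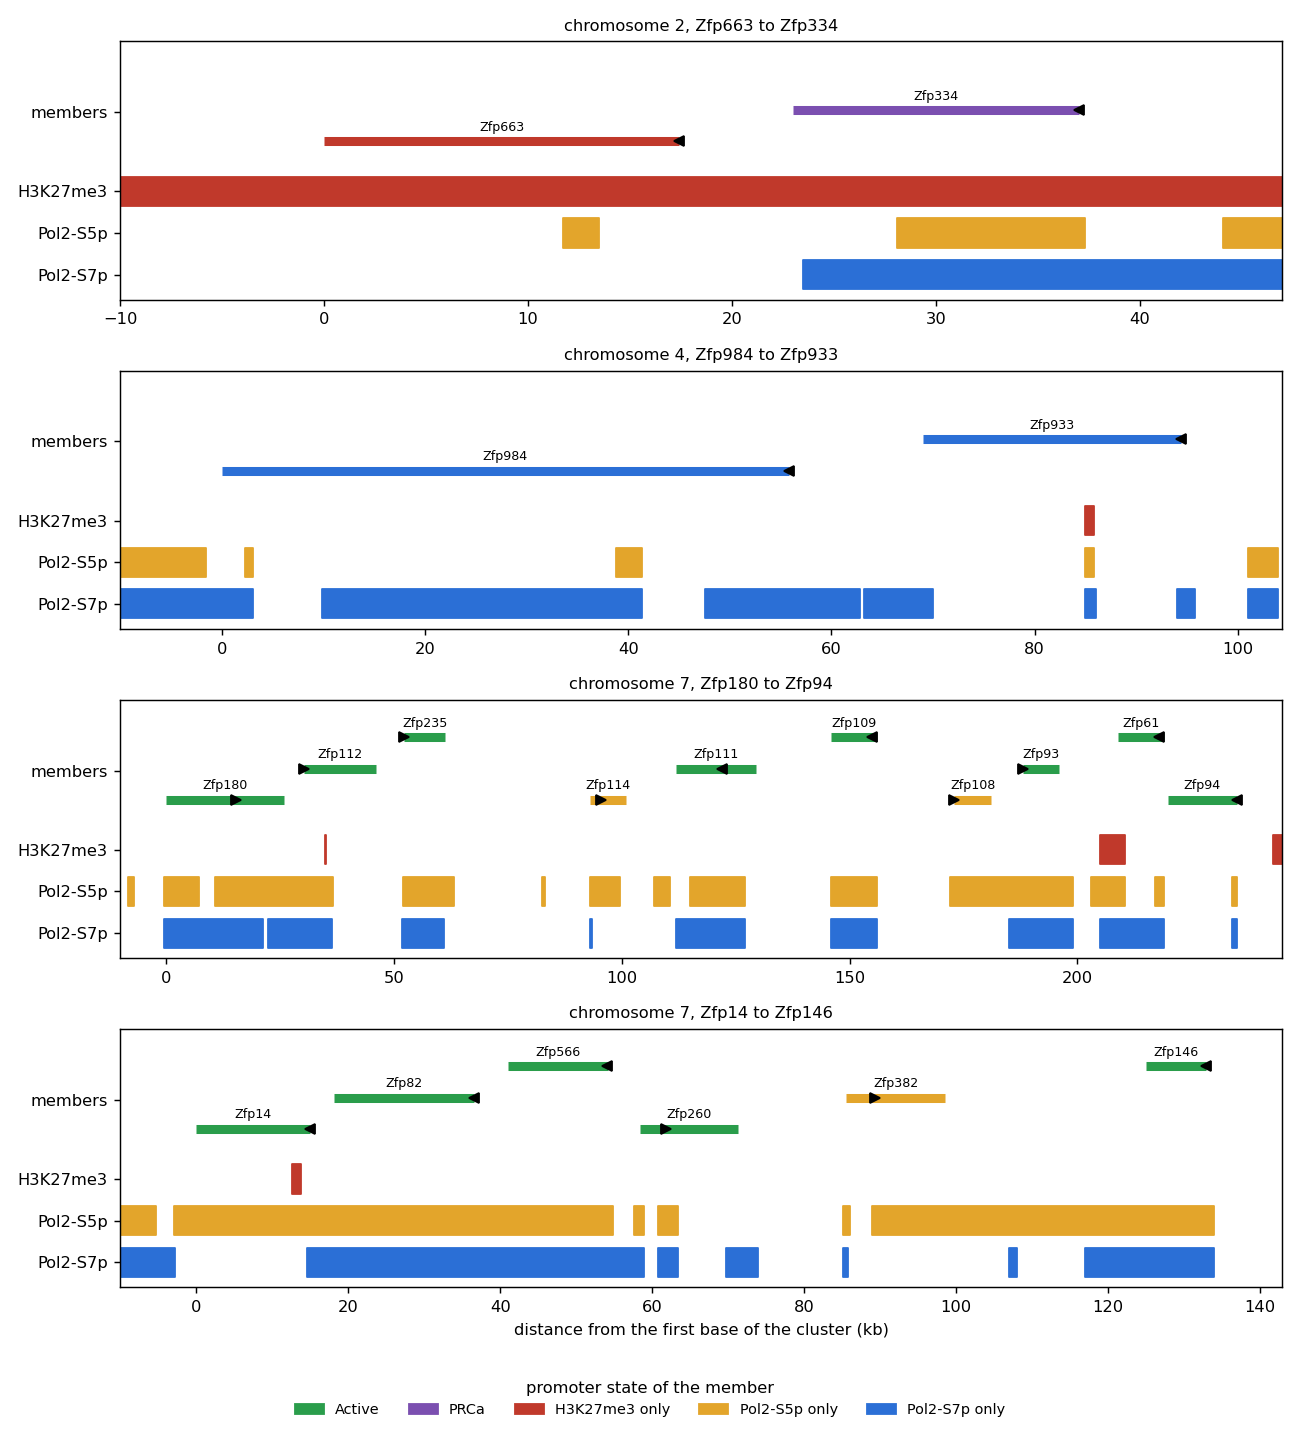
Maps of 4 clusters, with distance from the first base of the cluster in kb on the horizontal axis, show the members coloured by promoter state above the H3K27me3, Pol2-S5p and Pol2-S7p regions. The chromosome 2 pair lies within 1 H3K27me3 region. The chromosome 4 pair has Pol2-S7p over 61.4% and Pol2-S5p over 4.45% of the span. The chromosome 7 clusters hold stretches under both polymerase marks, under 1 of them and under neither.

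Cover of gene bodies varied widely between chromosomes, also where nearly all promoters were Active. Chromosome 13 carried 20 members in 5 clusters, 19 of them Active and none with H3K27me3, yet the median member body there had 0% under Pol2-S7p and 0% under Pol2-S5p. On chromosome 17, with 22 members and 19 Active, the medians were 0.942% and 0.372%, and on chromosome 8, with 8 of 9 Active, both medians were 0%. On chromosome 7, with 59 members in 14 clusters and 45 Active, the medians were 87.3% for Pol2-S7p and 98.9% for Pol2-S5p. On chromosome 9 they were 100% and 23.4% over 7 members, and on chromosome 6 100% and 48% over 11.

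Cluster size and place within the cluster went with little difference in promoter state. Active promoters made up 75% of 44 members in clusters of 2, 80.8% of 52 in clusters of 3 or 4, and 77.6% of 58 in larger ones, and promoters with H3K27me3 made up 15.9%, 9.62% and 15.5%. In clusters of 3 or more, 78% of the 50 outermost and 80% of the 60 inner members were Active, and 16% and 10% held H3K27me3. Of 107 adjacent pairs of members, with a median distance of 27.7 kb, 75 were in the same state. With 77.9% of members Active, many pairs would be alike whatever their distance. No share for distant members or for adjacent coding genes was computed. Most adjacent members lay on the same strand (72 pairs, 53 of them alike in state), with 18 divergent pairs (12 alike) and 17 convergent pairs (10 alike). H3K27me3 lay at 1 or both promoters in 20 pairs and at both in 7.

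The closest 5 pairs of 5′ ends were all Active at both genes. Zfp882 and Zfp617 start 27 bp apart on the same strand of chromosome 8. Zfp944 and Zfp758 (53 bp), and Zfp942 and Zfp943 (88 bp, the pair whose shared window is printed above), are divergent pairs of chromosome 17. Zfp646 and Zfp668 (607 bp) and Zfp27 and Zfp383 (1651 bp) lie on opposite strands of chromosome 7. The gene bodies of these pairs ranged widely: those of Zfp27, Zfp383, Zfp646 and Zfp668 lay wholly under both polymerase marks, whereas that of Zfp942 had none of either, and that of Zfp943, the longest named here at 107583 bp, had 0.744% under Pol2-S5p and 0% under Pol2-S7p. In all, 36 members shared their window with that of another coding or lncRNA gene, and 35 of these were Active (97.2%) with none holding H3K27me3, beside 53.7% and 39.4% of all coding genes with a shared window. Of the 118 members with a window of their own, 85 were Active (72%) and 21 held H3K27me3 (17.8%), beside 31.6% and 37.3%.

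Polymerase regions at member promoters were narrower than at other coding promoters. The median width of the widest Pol2-S5p region touching the promoter was 6400 bp for the members and 17600 bp for all coding genes with the mark, and for Pol2-S7p it was 6400 and 20600 bp. For H3K27me3 it was 5600 and 16800 bp. Regions over 10 kb held 41.7% of member promoters with Pol2-S5p and 44.7% of those with Pol2-S7p, beside 57.5% and 61.7% over all coding genes. The regions that touched 3 member promoters, the most for any region, lay on chromosome 7: a Pol2-S5p region of 68.4 kb and a Pol2-S7p region of 57.2 kb covered the promoters of Zfp27, Zfp383 and Zfp74, and regions of 57.8 and 44.4 kb those of Zfp14, Zfp566 and Zfp82. Members without promoter H3K27me3 lay a median of 31.6 kb from the nearest H3K27me3 region (1.05 to 279.9 kb, 133 members), close to the 33.2 kb of all Active coding promoters.

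Member gene bodies often lay wholly under polymerase regions or had none, which was not particular to them. The lower and upper quartiles of body cover were 0% and 100% for each polymerase mark, in members and over all coding genes. The bodies had a median length of 12.6 kb. Pol2-S7p covered over 50% of the body in 68 of 154 members (44.2%, 36.2 to 52.4), beside 36.5% of all coding genes, a share within the interval. For Pol2-S5p the count was 63 (40.9%), beside 40.6%, and for H3K27me3 it was 11 (7.14%, 3.62 to 12.4), beside 19.9%. The median member had 29.1% of its body under Pol2-S7p and 20.4% under Pol2-S5p, where the medians over all coding genes were 3.23% and 10.5%. In 34 members the body lay wholly under both polymerase marks, and in 38 it had neither. Neither count was made over all coding genes.

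At the 3′ end of the gene, Pol2-S7p was present in 91 members (59.1%, 50.9 to 66.9), beside 46.4% of all coding genes, and Pol2-S5p in 82 (53.2%, 45 to 61.3), beside 50.3%. H3K27me3 was present at 19 (12.3%, 7.59 to 18.6), beside 23.3% of all coding genes and 15.7% of unclustered Zfp genes. Among Active genes the median body covers stood in the reverse order, but the summed covers did not. The median Active member had 41% of its body under Pol2-S7p and 23.2% under Pol2-S5p, whereas the median Active coding gene had 100% under each. Unclustered Active Zfp genes had medians of 60.5% and 23.3%, so a low median Pol2-S5p cover was shared by both Zfp groups. Summed over Active bodies, Pol2-S7p covered 43.7% in members, 40.2% in unclustered Zfp genes and 36.9% over all coding genes. For Pol2-S5p the summed covers were 38.5%, 38.4% and 37.3%. Among the members, 28 of the 120 that were Active had a body free of both marks. The same share was not counted over all Active coding genes. In Active members the lower quartile of body cover was 0% for each polymerase mark. Over all Active coding genes it was 7.68% for Pol2-S5p and 11.7% for Pol2-S7p. PRCa members had a median of 36.3% under H3K27me3, 50.2% under Pol2-S5p and 43.7% under Pol2-S7p, where the medians over all PRCa genes were 29%, 76.2% and 38.2%.

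**Figure D4:**
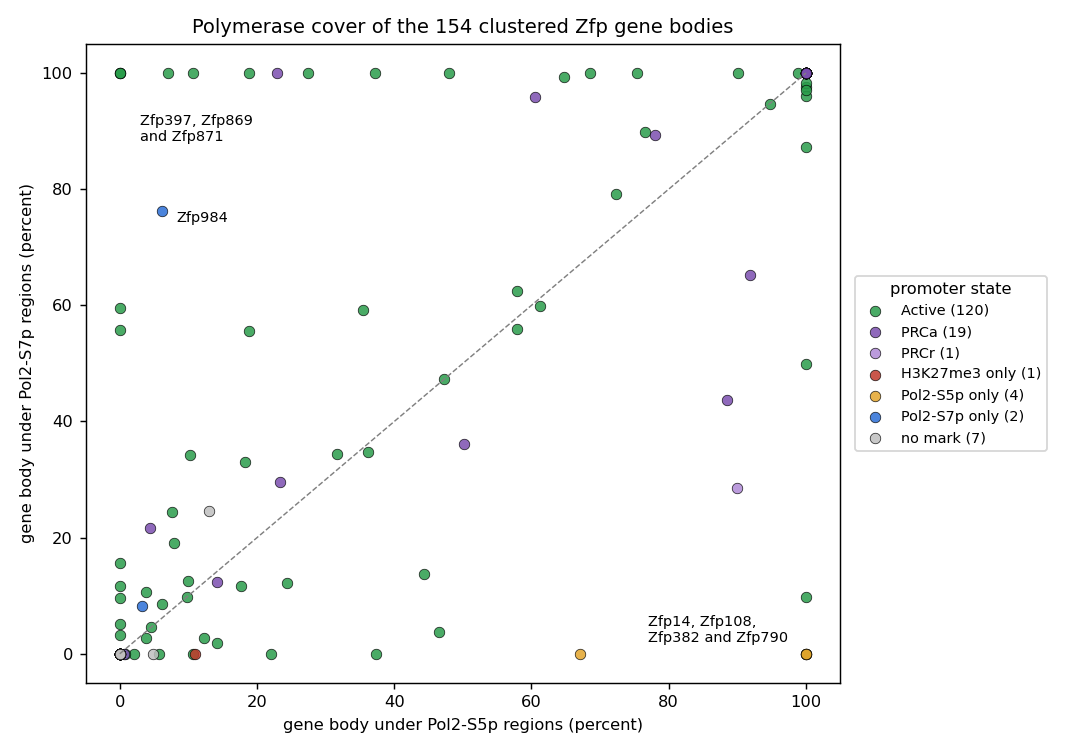
Each point is 1 of 154 clustered Zfp genes, placed by the percent of its body under Pol2-S5p (horizontal) and Pol2-S7p (vertical) and coloured by promoter state. Points gather at the corners, with 34 bodies wholly under both marks and 38 under neither, and 3 bodies sit at full Pol2-S7p without Pol2-S5p.

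Pol2-S7p reached beyond Pol2-S5p in a subset of member bodies. Summed over the 2462 kb of member bodies, where bases shared by overlapping genes count once per gene, Pol2-S7p covered 41% and Pol2-S5p 35.6%. These covers were 31.1% and 32.6% in unclustered Zfp bodies, and 16.8% and 20.1% over all coding genes. Of the Pol2-S7p length in member bodies, 25.3% (255 kb) lay outside Pol2-S5p regions, beside 28.1% in unclustered Zfp bodies and 15.6% over all coding genes. The Pol2-S7p length outside Pol2-S5p came from 43 members (27.9%), beside 40% of unclustered Zfp genes and 19.3% of all coding genes with such a length. The gap from all coding genes closed with only the higher-scoring regions (25.6% against 24.1%) and without regions over 10 kb (60% against 61.5%). Of the Pol2-S5p length, 14% lay outside Pol2-S7p, beside 29.6% over all coding genes. Pol2-S7p covered more of the body than Pol2-S5p in 42 members (27.3%) and less in 36 (23.4%), so neither direction held for most members. The shares were 15% and 25.4% over all coding genes, and 35.7% and 25.2% in unclustered Zfp genes.

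The longest stretch of this kind was in Zfp984, with 38415 bp (70.1% of the body) under Pol2-S7p alone. Next came Zfp26 with 28228 bp (92.9%) and Zfp871 with 21052 bp (100%). Zfp26 had a Pol2-S5p region of only 600 bp in its window against a Pol2-S7p region of 34200 bp, and Zfp871 the same 600 bp against 25800 bp. Zfp426 and Zfp266, the neighbours of Zfp26, had 13798 bp (59.5%) and 7932 bp (31.5%), so that all members of this chromosome 9 cluster were among the 10 longest. Zfp59 had 12200 bp (72.5%), Zfp493 10513 bp (89.4%), Zfp397 8982 bp (100%), Zfp956 8410 bp (77.1%) and Zfp940 7800 bp (40.9%). All of these were Active but Zfp984 (Pol2-S7p only) and Zfp956 (PRCa). Full Pol2-S7p cover with no Pol2-S5p was found in 3 bodies, those of Zfp397, a SCAN zinc finger gene, Zfp869 and Zfp871, and full Pol2-S5p cover with no Pol2-S7p in 4, those of Zfp14, Zfp108, Zfp382 and Zfp790.

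Within the clusters of 5 or more members, cover of the body spanned most of its range. In 5 of these 9 clusters the member with the most Pol2-S7p had a fully covered body and the one with the least had none: Zfp61 and Zfp108, Zfp27 and Zfp790, and Zfp146 and Zfp14 on chromosome 7, and Zfp459 and Zfp429, and Zfp273 and Zfp85, on chromosome 13. Zfp212 (100%) and Zfp398 (2.71%) on chromosome 6, and Zfp524 (100%) and Zfp579 (12.4%) on chromosome 7, came close to it. In the cluster of Zfp768 to Zfp689 even the lowest member, Zfp768, had 89.4%, beside 100% in Zfp688. In the cluster of Zfp677 to Zfp948 on chromosome 17 the highest member, Zfp948, had 10.6% and Zfp51 had 0%, although 5 of its 6 promoters were Active.

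In the average profile, Active members lay below other Active genes before the start and through most of the body, but not just after the start. At 2.5% of the way to the 3′ end, Pol2-S5p covered 83.3% and Pol2-S7p 86.7% of Active members, against 78.6% and 80.9%. At 5% of the way the values were 65% and 60.8% against 71.9% and 75.8%. At 5 kb before the start, 33.3% of 120 Active members lay under each polymerase mark, beside 52.4% (Pol2-S5p) and 51.6% (Pol2-S7p) of 7455 other Active genes. In the middle of the body the values were 40.8% and 48.3% for the members against 62.2% and 65.5%. At 1 kb past the 3′ end they were 52.5% and 55% against 73.6% and 75.2%, and at 10 kb past it 38.3% and 30.8% against 49.1% and 43.3%. Pol2-S7p without Pol2-S5p lay over the middle of the body in 11.7% of Active members and 7.77% of other Active genes.

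**Figure D5:**
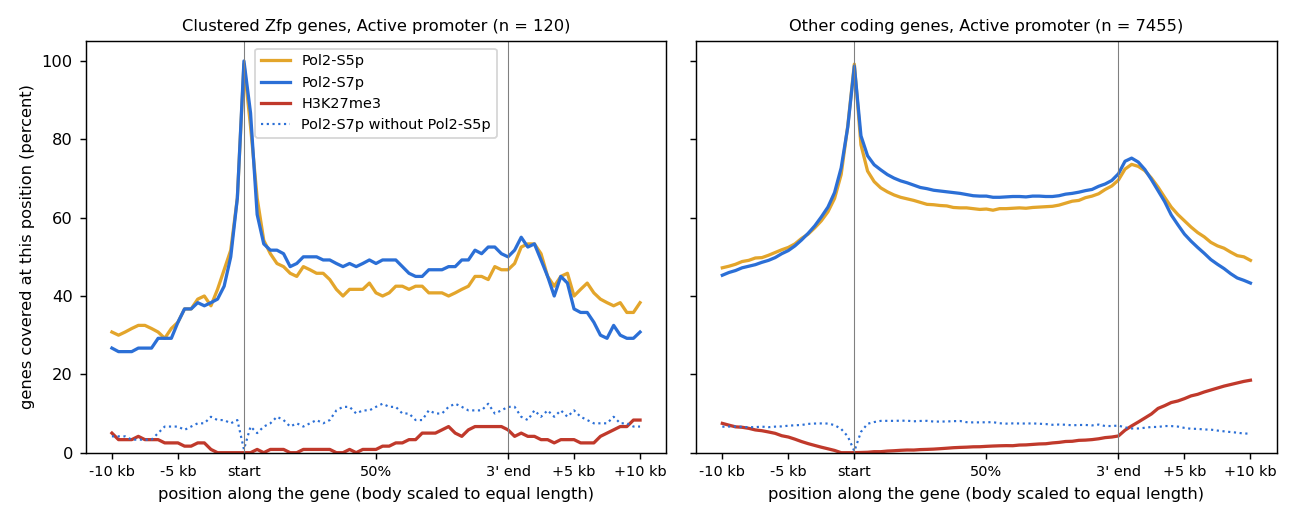
Lines give the percent of genes covered by each mark (vertical axis) from 10 kb before the start, through the body scaled to equal length, to 10 kb past the 3′ end, with a dotted line for Pol2-S7p without Pol2-S5p. In the middle of the body Pol2-S7p covers 48.3% of 120 Active members and 65.5% of 7455 other Active genes.

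Features that the rule did not use were read from the translated proteins and the genome. The KRAB pattern was found in 119 of 154 members, and 92 of these were Active (77.3%), 14 held H3K27me3 (11.8%) and 7 held no mark. SCAN domains, which join zinc finger proteins in pairs, were found without a KRAB box in 6 members, Zfp444, Zfp446, Zfp174, Zfp213, Zfp397 and Zfp24, all Active. Of 29 members with neither pattern, 22 were Active (75.9%) and 7 held H3K27me3 (24.1%). Unclustered Zfp genes with the KRAB pattern were Active in 58 of 91 cases (63.7%), held H3K27me3 in 8 (8.79%) and held Pol2-S7p without Pol2-S5p in 13 (14.3%), which are all such promoters among them. Of 108 other coding genes with the KRAB pattern, 65.7% were Active and 10.2% held H3K27me3, so a low H3K27me3 share was seen for the KRAB pattern inside and outside the clusters.

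Members had a median of 12 zinc fingers by pattern (0 to 27), beside 9 in unclustered Zfp genes. The 104 members with 10 or more fingers were Active in 81.7% of cases and held H3K27me3 in 9.62%, and the 49 with 1 to 9 fingers in 69.4% and 22.4%. The same order was seen over all coding genes, with 68.2% and 16.9% for 10 or more fingers and 50.3% and 39.8% for 1 to 9. No finger was found in the annotated protein of Zfp935, which was Active. The observed to expected CpG ratio of the 2 kb window, a measure of CpG island character, had a median of 0.448 in members and 0.401 over all coding genes. In all coding genes the Active share was higher at higher ratios, 17.4% in the lowest of 3 classes of equal size and 37.6% and 52.7% in the next, while in members it was 83.3% (12 genes), 77.1% (109) and 78.8% (33). H3K27me3 in the highest class lay at 21.2% of members and 47% of all coding genes.

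A set of 9 short sequences was searched on both strands in the RefSeq promoters, which matched 132 members and 16538 coding genes by symbol. GGGCGG, the core of the GC box, was present in 37.9% of member promoters and 48.4% of all, and in 37.5% of Active members against 64.3% of all Active genes. CCAAT was present in 47.7% and 38.3%, GGAAGTG, the core bound by ETS factors, in 19.7% and 12.3%, and GCATGCGC, within the NRF1 motif, in 6.82% and 3.78%. AAGATGGC, within the YY1 motif, was present in 5.3% and 3.3%, TGACGTCA in 3.79% and 2.41%, CACGTG in 6.82% and 8.02%, and TATAAA in 7.58% and 12.9%. Some orders turned between Active members and all Active genes: TATAAA (8.65% against 6.55%), GCATGCGC (5.77% against 6.68%) and AAGATGGC (5.77% against 6.12%). Others held: CCAAT (48.1% against 40.7%), GGAAGTG (21.2% against 17.4%), TGACGTCA (3.85% against 3.55%) and CACGTG (6.73% against 10.7%). Unclustered Zfp promoters held CCAAT in 50.3% and GGAAGTG in 23.4%. TCGCGAGA, within the ZBTB33 motif, was in none of the 132 member promoters and in 1.55% of all. Of the promoters printed above, Zfp316 held GGAAGTG at 2 places and GGGCGG at 1, Zfp110 held CCAAT and GGAAGTG, Zfp146 held GGAAGTG, and Zfp943 held the GC box core, the ETS core and CACGTG at 1 place each. Zfp984 held CCAAT at 2 places and GGGCGG at 1, Zfp101 held CCAAT at 2, and Zfp933 held CACGTG at 1.

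The genes through which KRAB zinc finger proteins act were themselves under polymerase. Of 19 such genes, 15 were Active and 4 were PRCa (Setdb1, Chd3, Hdac2 and Pphln1), and none lacked polymerase. Over all coding genes 35.9% were Active, 23.9% were PRCa and 70.5% held a polymerase mark. Both polymerase marks covered the whole body of Trim28, the corepressor bound by KRAB boxes, and of Setdb1, as they did for the heterochromatin protein gene Cbx5, the deacetylase gene Hdac1, the DNA methylation genes Dnmt1 and Uhrf1, and Mphosph8 of the HUSH complex. Full cover by each mark was also the median over all Active coding genes. Chd3 stood apart, with 96.8% of its body under H3K27me3 and 13.5% under each polymerase mark. The remaining Active genes of the list were Atf7ip, Cbx1, Cbx3, Chd4, Morc3, Fam208a, Trim24, Trim33 and Smarcad1, with Pol2-S7p over 15.7% (Trim33) to 100% (Cbx1, Chd4 and Morc3) of the body.

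Other coding genes inside the cluster spans were in similar states to the members. Of 23 such genes, 8 encode C2H2 zinc finger proteins under other symbols, of which 6 were Active, 1 was PRCa and 1 had no mark. Of the other 15, 12 were Active, 2 were PRCa and 1 had no mark.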

How the data were processed

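The authors mapped 75 bp single-end reads with Bowtie2 2.3.4.3 to an N-masked mm10 genome and called enriched regions with the BCP peak finder, 1 list per mark. The deposited lists give chromosome, start, end, a width in bp (other) and a score whose unit is not given in the sources used here. Widths were multiples of 200 bp. No reads were used, so the study's read threshold for promoters was not applied, cover by regions took the place of its reads in choosing starts, and depth is unknown.

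Genes, starts and gene ends came from the GENCODE annotation of the same build. Promoters were 2000 bp windows centred on the annotated start with the longest Pol2-S5p cover, then Pol2-S7p cover, then the longest transcript, and a mark counted from 1 bp of overlap. Bodies ran from 1000 bp after the start to the gene end, if at least 200 bp. Shares carry 95% exact Clopper-Pearson intervals. Cover, states and region arithmetic were tested on simulated data, and clustering and the choice of start were not. Words of 75 bases were counted on both strands of the genome. Promoter sequences came from RefSeq (GRCm38.p6). The design foresaw RefSeq proteins, and the longest GENCODE coding sequence was translated instead. Fingers were counted as C-x2–4-C-x12-H-x3–5-H, and the KRAB and SCAN patterns were set after looking at member proteins and miss divergent boxes.

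Named genes were members with Pol2-S7p and without Pol2-S5p, the 10 with most H3K27me3 in the window, the highest and lowest Pol2-S7p body in each cluster of 5 or more, the 10 with the most Pol2-S7p outside Pol2-S5p, Zfp146 and Zfp74, which the study names, and the 5 closest pairs. Other members named in small counts, in shared regions or at the 50 kb limit were chosen after their values were seen. Members and lists were chosen with earlier results of these data known. Analyses used Python 3.11.15, NumPy 2.4.6, SciPy 1.17.1, Biopython 1.88, Numba 0.67.0 and Matplotlib 3.10.9.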

Additional observations from a re-analysis of the deposited data

How the results depend on the processing

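Of 98 values under 11 alternatives, 71 stayed within the interval of the reported promoter share or within 1.5 times the reported body value, and 27 did not. The alternative limited to windows or bodies with at least 50% unique words left out no member. Its values, counted among the 71, repeated the reported ones and could not differ. Where a region had to score above its own list's median, Pol2-S5p and Pol2-S7p each lay at 64.9% of members, Pol2-S7p without Pol2-S5p at 9.09%, and Active, PRCa and unmarked promoters made up 48.7%, 7.14% and 22.7%, with a median body cover by Pol2-S7p of 0%. Without regions over 10 kb the shares were 57.8%, 52.6% and 5.19%, Active 39.6% and unmarked 35.1%, the median body cover was 0%, 60% of Pol2-S7p lay outside Pol2-S5p and H3K27me3 covered 2.72% of bodies. With at least 50% of the window covered they were 76.6%, 67.5% and 5.84%, with Active 55.2%, PRCa 6.49% and unmarked 15.6%. Under these settings the Active share of all coding genes was 22.4%, 13.8% and 32.5%, and the unmarked share 40.4%, 56.1% and 26.6%. With higher-scoring regions only, Pol2-S5p lay at 44.7% of all coding promoters, Pol2-S7p at 36.4% and Pol2-S7p without Pol2-S5p at 5.44%. PRCa made up 8.57% there, close to the members' 7.14%. With at least 50% of the window covered these shares were 63.5%, 53.3%, 2.24% and 18.6%. Without regions over 10 kb, Pol2-S5p lay at 33% and Pol2-S7p at 25.8%. With regions over 10 kb left out, Pol2-S7p without Pol2-S5p lay at 5.31% of all coding promoters, close to the members' share, 61.5% of all Pol2-S7p body length lay outside Pol2-S5p, and the order of members and all coding genes turned for PRCa (7.79% against 6.68%) and for H3K27me3 body cover (2.72% against 1.32%), with a median Pol2-S7p body cover of 0% in both. With 5′ ends within 25 kb (75 members), Pol2-S5p lay at 97.3%, Pol2-S7p without Pol2-S5p at 0%, unmarked promoters made up 1.33%, and 16.4% of Pol2-S7p lay outside Pol2-S5p. Within 100 kb (202 members), Pol2-S7p without Pol2-S5p lay at 4.95%, and 38.3% of Pol2-S7p lay outside Pol2-S5p. The cause of these shifts was not tested beyond the construction of each setting. No paired analysis was possible because each mark has 1 library. The lists hold no reads, so regions missed for lack of depth or of mappable sequence cannot be told apart from sequence without the mark.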
